A study of Mus musculus with 3 samples.

Results

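The cells described here are Myl2-low cardiomyocytes of the early mouse embryo, defined as cells in which Myl7, Tnnt2, Ttn and Myl4 together made up at least 50 of every 10000 UMIs (unique molecular identifiers, 1 per captured mRNA molecule) and in which Myl2 had fewer than 3 UMIs. Of 14777 cells in the dataset, 533 met both conditions. A further 454 cells reached the level of the 4 genes but held 3 or more Myl2 UMIs and are called Myl2-positive cardiomyocytes, and 13790 cells lay under the level. The cells were thus chosen by the measured UMIs of these 5 genes, whose levels are given as a description and were not tested.

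The cells came from embryos in which Mesp1-Cre, a recombinase made in early mesoderm, switched on the red fluorescent Ai9 reporter and recombined a floxed Wls gene, and red cells were sorted and sequenced by droplet single-cell RNA-seq. Wls encodes the carrier that brings Wnt proteins to the cell surface for secretion. Mutants were Mesp1-Cre; Ai9; Wls fl/fl and controls Mesp1-Cre; Ai9; Wls fl/+, all on C57BL/6, so controls carried the same Cre and reporter and 1 floxed Wls allele. The comparison ran over embryonic days E8.0, E8.5 and E9.5, together with a single E7.5 control sample that held no Myl2-low cardiomyocyte among its 28 cells. Deletion reached only the Mesp1-Cre lineage, so neighbouring tissue kept its Wls. The replicate is the MULTI-seq barcode, a lipid-anchored tag given to each sample before pooling, and samples are named here by that barcode (Bar22). How many embryos stand behind 1 barcode was not given in the sources used here, so p-values measure the spread between barcoded samples.

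Cardiomyocytes of the newly formed heart tube first switch on a shared contractile programme. Myl2, the ventricular regulatory light chain, is then gained in the ventricular chambers, while Myl7, the atrial regulatory light chain, is made throughout the young heart. Cells with contractile genes and little Myl2 therefore include the earliest differentiating cells and the myocardium of both ends of the tube: the outflow tract at the arterial pole and the atria and sinus venosus at the venous pole. The poles grow by addition from the second heart field, a progenitor pool in which Wnt signals act on proliferation and differentiation.

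The 533 cells came from 19 of the 22 barcoded samples. At E8.0 they numbered 14, 17 and 52 in controls Bar24, Bar26 and Bar29 and 28, 45 and 30 in mutants Bar25, Bar27 and Bar28. At E8.5 there were 68 in control Bar3, 1 in control Bar2 and 44 in mutant Bar1. At E9.5 there were 38, 37, 22, 6 and 54 in controls Bar22, Bar23, Bar4, Bar7 and Bar9, and 17, 17, 14, 13 and 16 in mutants Bar19, Bar20, Bar21, Bar8 and Bar10. Control Bar6 and mutant Bar5 held none. Gene-level tests used the 17 samples with at least 10 such cells. Genotype tests compared samples within a stage and run, and Bar4 was the only E9.5 sample of run 2 among them, so the E9.5 genotype differences rest on Bar22, Bar23 and Bar9 as controls, although Bar4 is given in the values and means.

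The summed level of the 4 contractile genes had a median of 165 per 10000 UMIs (range 50.4 to 650), compared with 352 in Myl2-positive cardiomyocytes and 0.546 in the remaining cells. At the threshold, 43 members lay between 50 and 60 with a median of 56.0, and 47 cells with little Myl2 lay just outside, between 40 and 50, with a median of 44.9. Of the members, 391 held no Myl2 UMI, 97 held 1 and 45 held 2, and the next counts of 3, 4 and 5 were held by 29, 17 and 18 non-members. The cardiomyocyte part of the label was checked against 2 further genes that the rule did not use, both of them markers given beforehand for these cells. Acta2, smooth muscle actin and an early myocardial gene, was detected in 97.8%, 97.3% and 97.9% of members at the 3 stages in order and in 47.9%, 28.6% and 41.2% of cells under the level, whose median depths were higher (27159, 23807 and 19293 UMIs against 24159, 18556 and 13974). Tdgf1, a Nodal co-receptor made in outflow myocardium, was detected in 45.2%, 17.7% and 23.1%. With each cell thinned to 5000 UMIs the Tdgf1 shares were 30.6%, 12.4% and 17.6%, against 0.276%, 0.116% and 0.381% of cells under the level, so this marker covered a portion of the members only.

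Members had a median of 19512 UMIs and 4958 genes per cell. Their summed UMIs per tested sample ran from 138825 to 1325342, with the E9.5 mutants among the shallowest. Run 3, which held E9.5 samples Bar7, Bar9, Bar8 and Bar10, stood apart in haemoglobin RNA: globin transcripts were 56.1 to 59.7 per 10000 member UMIs there and 8.32 to 18.8 in the other samples. Between runs, 23 cell barcodes recurred. Sex, read from Xist and Y-linked genes, differed between the groups. At E9.5 all 4 tested controls were female, mutants Bar19 and Bar21 were male and Bar20, Bar8 and Bar10 were female. At E8.0 the mutants were all male, and the controls were female apart from the mixed Bar29. For E9.5, values in female samples alone are given below beside the gene groups that lead the comparison.

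The share of Myl2-low cardiomyocytes among sequenced cells overlapped between the genotypes. At E8.0 they were 3.81%, 2.77% and 9.15% of cells in controls and 7.14%, 6.42% and 5.36% in mutants, or 5.25% ± 3.43 against 6.31% ± 0.898 (SD, n = 3 each). At E9.5 they were 2.04%, 2.15%, 3.62%, 3.66% and 3.92% of cells in the 5 controls. In the 6 E9.5 mutants the share ran from 0% through a median of 2.22% to 7.74%, the 0 being 0 of 57 cells in Bar5 (exact 95% binomial upper limit 6.27%). The mutant range thus enclosed every control, and the 2 highest mutant shares, Bar8 and Bar10, both came from run 3. At E8.5 the only samples of sufficient size had 2.71% (control) and 9.03% (mutant), with no replicate. A permutation test within stage on the log odds, two-sided, gave a mutant minus control difference of 0.25 on the log2 odds scale with p = 0.554 over 10 mutant and 9 control samples. With cells thinned to 5000 UMIs it was 0.54 (p = 0.115, 9 samples each, by exact permutation), a test without Bar5, which had 49 cells of that depth. Without Bar5 and unthinned it was 0.46, and thinned in samples of at least 20 cells, which keeps Bar5 and adds control Bar2, it was 0.35. By exact permutation the E9.5 difference was -0.15 (p = 0.805), a sign that turned without Bar5 (0.191) and at a level of 25 per 10000 (0.176). Thinning gave 0.281 without Bar5 and 0.00954 with it. The E8.0 difference was 0.45 (exact p = 0.5), in a design whose smallest possible p is 0.1. Because dissociation, sorting and tagging intervene, these are shares of sequenced cells.

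**Figure D1:**
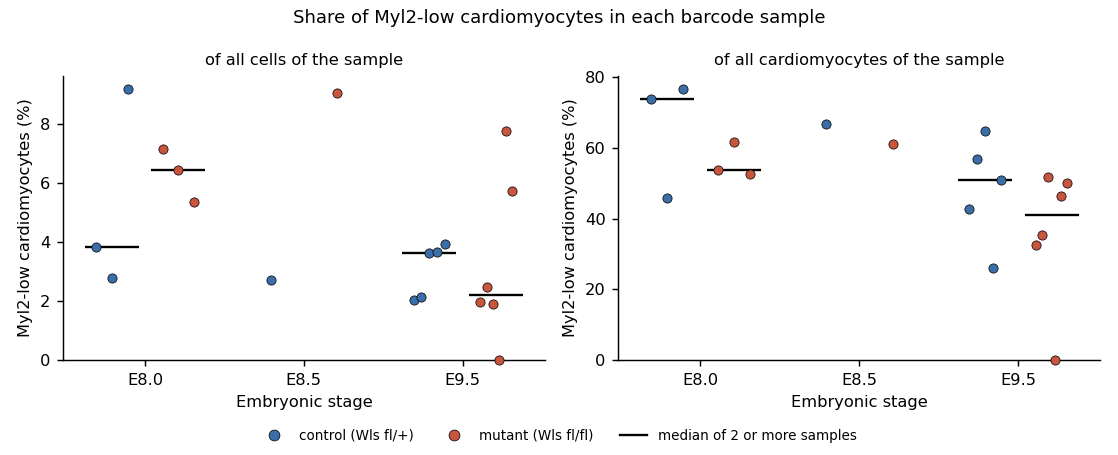
Each point is 1 barcoded sample by stage and genotype; the left axis gives Myl2-low cardiomyocytes as a percent of all cells and the right panel as a percent of all cardiomyocytes, with a line at the median of 2 or more samples. Control and mutant points overlap at E8.0 and E9.5 in both panels, with E9.5 mutant shares of all cells from 0% to 7.74%.

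Among cardiomyocytes, the mean share of Myl2-low cells was lower at E9.5 than at E8.0 in both genotypes, a stage difference that was not tested. Members were 65.4% ± 16.9 of E8.0 control cardiomyocytes and 56.0% ± 4.89 of E8.0 mutant ones (SD, n = 3 each). At E9.5 they were 48.3% ± 14.8 (n = 5) and 36.1% ± 19.3 (n = 6, lowest 0%, highest 51.9%). The 0% is Bar5, which held 2 cardiomyocytes, and without it the mutants were 43.3% ± 8.70 (n = 5). On this denominator the genotype difference had the opposite sign, -0.40 on the log2 odds scale, with p = 0.224 by permutation over 9 mutant and 9 control samples of at least 10 cardiomyocytes, which leaves out Bar5.

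Regional genes divided the members. Each cell was thinned to 5000 UMIs, and it was counted as outflow-marked when 6 outflow and second heart field genes (Tdgf1, Isl1, Rspo3, Sema3c, Wnt11, Fgf8) reached 2 UMIs together, and inflow-marked when 5 venous-pole genes (Nr2f1, Nr2f2, Tbx18, Shox2, Vsnl1) did. Isl1 is a gene of the second heart field, which adds cells to both poles. Its median log2 ratio of members to Myl2-positive cells was 1.67, whereas the others ran from -0.77 (Rspo3) to -0.05 (Wnt11). Cells counted as outflow-marked through Isl1 are thus not placed at 1 pole. At E8.0, 35.5% of 186 members were outflow-marked only, 24.2% inflow-marked only, 4.84% both and 35.5% neither. By E9.5 the 221 members split into 34.4%, 46.6%, 9.95% and 9.05%. Unmarked cells, as frequent as the outflow class at E8.0, were 9.05% at E9.5, and over the pooled cells the inflow class was then the most frequent. By sample, the inflow only share exceeded the outflow only share in 6 of 9 E9.5 samples, equalled it in Bar20 (41.2%) and was below it in Bar9 (36.5% against 40.4%) and Bar8 (25% against 41.7%). Cells with both marks were fewer than independent marking would give, 4.84% against 11.7% at E8.0 and 9.95% against 25.1% at E9.5. These are descriptions of pooled cells. The cut is a count on a continuous range, and 16 E8.5 and 13 E9.5 members with fewer than 5000 UMIs were left out.

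The same count in Myl2-positive cardiomyocytes gave inflow-marked only shares of 4.17% of 120 cells at E8.0 and 5.58% of 269 at E9.5. Their outflow-marked only shares were 54.2%, 50.8% and 31.2% at E8.0, E8.5 and E9.5, against 35.5%, 30.9% and 34.4% of members. The outflow mark thus did not set the members apart from Myl2-positive cells. Among members, the inflow-marked only share by sample at E8.0 was 0%, 29.4% and 19.2% in controls and 3.57%, 44.4% and 30% in mutants. At E9.5 it was 50%, 51.4%, 46.2% and 36.5% in controls Bar22, Bar23, Bar4 and Bar9 and 70.6%, 41.2%, 64.3%, 25% and 50% in mutants Bar19, Bar20, Bar21, Bar8 and Bar10. The genotypes overlapped at both stages, and at E8.0 Bar24 and Bar25 had the lowest inflow only shares. In Bar25 a further 10.7% of cells carried both marks. At E8.5 the share was 47.5% of 61 control and 58.3% of 36 mutant members.

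**Figure D2:**
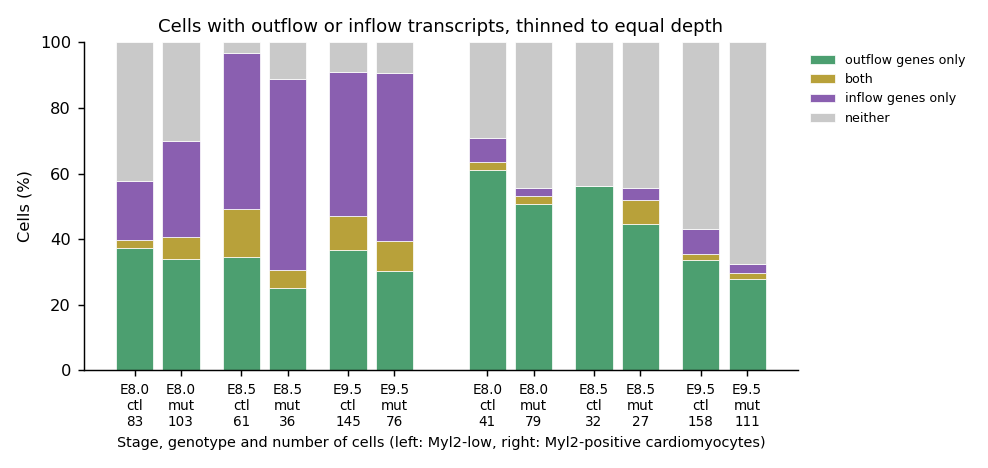
Stacked bars give the percent of cells marked by outflow genes only, both, inflow genes only or neither after thinning, per stage and genotype, for Myl2-low cells on the left and Myl2-positive cells on the right, with the number of cells under each bar. The inflow only segment of the Myl2-low bars is larger at E8.5 and E9.5 than at E8.0, and it stays at a few percent in the Myl2-positive bars.

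Set against Myl2-positive cells of the same sample, the genes with the largest ratios included venous-pole genes higher in members and chamber genes lower in members. This contrast was fixed in part by the rule and is described over 16 samples without a test, as a median log2 ratio with 5 CPM (counts per 1e6 UMIs) added. Shox2, a sinoatrial transcription factor, had a ratio of 3.74 (means 116 and 4.58 CPM) and was higher in members in all 16 samples. Nr2f2, the COUP-TFII regulator of atrial identity, had 3.17 (259 and 24.9 CPM) and was also higher in 16 of 16. Further genes on the high side were Sfrp5, a secreted Wnt antagonist (2.96), the matrix protein gene Smoc2 (2.63), Nr2f1 (2.47), the sinus venosus regulator Tbx18 (2.12), the netrin receptor gene Unc5c (2.12), the protocadherin gene Pcdh17 (2.11), the calcium sensor gene Vsnl1 (2.10) and the receptor gene Pdgfra (2.05). The low side was headed by Myl2 itself, which the rule used, and then by Irx4, a ventricular transcription factor (-3.18, means 4.27 and 56.9 CPM), and Nppa, atrial natriuretic peptide (-3.12, 119 and 471 CPM). Brain natriuretic peptide gene Nppb (-3.00), the transcriptional cofactor gene Cited1 (-2.82), the cholecystokinin gene Cck (-2.81), the muscle cytochrome oxidase subunit Cox6a2 (-2.80), the ventricular essential light chain Myl3 (-2.43), skeletal actin Acta1 (-2.33), Smpx (-2.28) and Tesc (-2.17) followed. Of 6533 genes, 94 were more than 2-fold higher and 103 more than 2-fold lower in the members. Venous-pole and chamber genes were not counted as groups in this contrast, and Nppa also belongs to the atrial and inflow list used below.

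From E8.0 to E9.5 atrial and inflow genes, sarcomere genes and Acta2 were among those that rose in the members, and Ifitm1 and Lhx1 among those that fell. In edgeR's quasi-likelihood test on UMIs summed per sample, with genotype in the model, 1271 of 8647 genes differed (14.7%), 759 higher at E9.5 (8.78%) and 512 lower (5.92%), at an adjusted p under 0.05. The number called was 344 in the control samples alone and 559 in the mutant samples alone. E8.0 members all came from run 1, and 824 genes were called when E9.5 was restricted to run 1.

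Among atrial and inflow genes, 9 of 15 tested rose and 2 fell, with a median log2 change of 1.5 against -0.01 over all genes. Shox2 was 0, 36.9 and 6.79 CPM in the E8.0 controls and 8.59, 24.9 and 15.9 in the E8.0 mutants. At E9.5 it was 206, 126, 98.5 and 136 CPM in controls Bar22, Bar23, Bar4 and Bar9 and 176, 205, 148, 49.2 and 144 in mutants Bar19, Bar20, Bar21, Bar8 and Bar10. Every E9.5 sample lay above every E8.0 sample, and the log2 change was 3.29 ± 0.36 (SE; adjusted p = 1.71e-06, edgeR's quasi-likelihood test). Tbx18 went from 0 to 18.2 CPM at E8.0 to 26.5 to 242 at E9.5, again without overlap, a log2 change of 3.97 ± 0.54 (adjusted p = 2.52e-05). Nr2f2 averaged 118 CPM at E8.0 and 303 at E9.5, with overlap, because Bar26, Bar27 and Bar28 already had 247, 186 and 155 CPM at E8.0. Its log2 change was 1.41 ± 0.33 (adjusted p = 0.00512). Nr2f1, its paralogue, rose by 1.66 ± 0.29 on the log2 scale (adjusted p = 0.00037), and Hey1, a Notch target of the atria, by 1.54 ± 0.24, without overlap. Tbx5, a venous-pole and chamber transcription factor, fell by 0.62 and Wnt2 fell by 0.66.

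The share of members with a Shox2 UMI was 13.4% at E8.0, 41.6% at E8.5 and 32.5% at E9.5. After thinning to 5000 UMIs it was 5.91%, 40.2% and 24.0%. In Myl2-positive cells, whose median depth was higher (18674 against 13974 UMIs at E9.5), the thinned shares were 2.5%, 1.69% and 1.12%, and in cells under the level 1.14%, 2.55% and 1.56%. The member share at E8.5 and E9.5 was therefore far above both other populations of the same libraries.

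**Figure D3:**
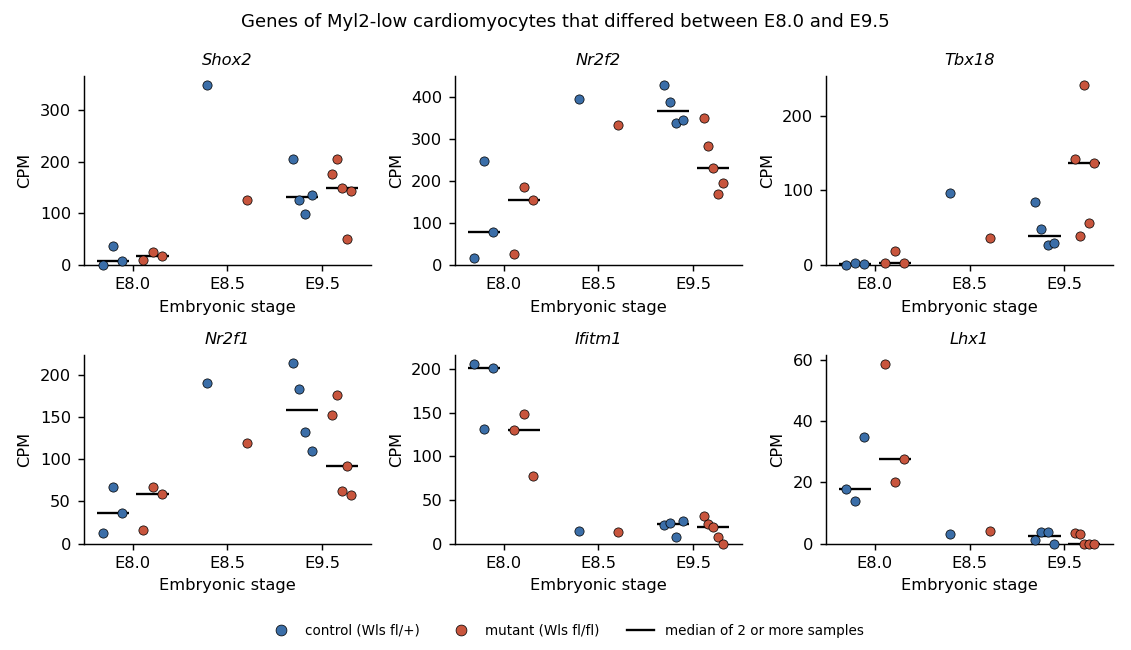
CPM of Shox2, Nr2f2, Tbx18, Nr2f1, Ifitm1 and Lhx1 in Myl2-low cardiomyocytes on a linear axis, 1 point per sample by stage and genotype. Shox2 and Tbx18 lie higher and Ifitm1 and Lhx1 lower in every E9.5 sample than in every E8.0 sample, while Nr2f2 and Nr2f1 overlap between the stages.

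Outflow and second heart field genes changed in both directions. Of 16 tested, Wnt11, Rspo3 and Sema3c rose and Sfrp5, Fgf8, Nrp1 and Mef2c fell. Sema3c, a semaphorin that guides neural crest cells into the outflow tract, was 0 to 13.4 CPM at E8.0 and 15.1 to 71.5 at E9.5, a rise of 3.18 ± 0.40 on the log2 scale (adjusted p = 9.65e-06, edgeR's quasi-likelihood test), with every E9.5 value above every E8.0 value. The noncanonical ligand Wnt11 rose by 1.63 and the Wnt enhancer Rspo3 by 1.76. Tdgf1, one of the given markers, was 16.2 to 172 CPM at E8.0 and 56.2 to 175 at E9.5, so the stages overlapped.

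Among sarcomere genes 15 of 29 tested rose and none fell, with a median log2 change of 0.64. Actn2, the Z-disc alpha-actinin, was 46.2 to 73.8 CPM at E8.0 and 89.7 to 281 at E9.5, without overlap, a rise of 1.33 ± 0.20 on the log2 scale (adjusted p = 8.2e-05, edgeR's quasi-likelihood test). The alpha myosin heavy chain Myh6 rose by 0.86 and the cardiac troponin I gene Tnni3 by 1.56. Acta2 averaged 2791 CPM ± 603 at E8.0 (SD, n = 6) and 6049 ± 783 at E9.5 (n = 9), a rise of 1.13 ± 0.12 on the log2 scale (adjusted p = 9.82e-07) without overlap. With run as a term in the model 7 sarcomere genes rose and 1 fell, which is fewer than 15, while the atrial and inflow count was 10 up and 1 down of 17.

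Ifitm1, Lhx1 and Lefty2 were among the genes with the largest falls. Ifitm1, an interferon-inducible membrane protein gene of the early embryo, was 206, 132 and 201 CPM in the E8.0 controls and 130, 149 and 78.0 in the E8.0 mutants, and it was at most 31.1 CPM in any E9.5 sample. Its log2 change was -2.90 ± 0.24 (adjusted p = 2.36e-08, edgeR's quasi-likelihood test), and the stages did not overlap. Lhx1, a LIM homeobox gene of early mesoderm, was 13.9 to 58.7 CPM at E8.0 and 0 to 3.79 at E9.5, also without overlap, with a change of -3.70 ± 0.47 (adjusted p = 1.09e-05). Lefty2, a secreted Nodal inhibitor of left mesoderm, ranged from 0 to 229 CPM within E8.0 and was at 0 in 8 of 9 E9.5 samples, so its fall rested on some of the E8.0 samples. The Nodal cofactor gene Cfc1, the apelin receptor gene Aplnr and Irx4 fell by 3.31, 2.94 and 2.91. Of 29 S phase and mitosis genes 15 fell and none rose, with a median of -0.49. The count was 8 without Bar29, 1 in the controls alone and 7 in the mutants alone.

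Low-oxygen genes were called higher at E9.5 in 22 of 26, but in 2 of 22 when controls alone were compared and in 25 of 26 when mutants alone were, so that this stage difference is taken up with the genotypes below. Genes listed as markers of other cell types moved with stage as well. In the proepicardial list (cells of the epicardial precursor next to the venous pole) 6 of 9 rose and Sfrp5 fell, with a median of 2.39. This list includes Tbx18, counted above as an inflow gene of the members. Its summed level in controls was 255 to 515 CPM at E8.0 and 220 to 584 at E9.5, which overlapped. In mutants it was 326 to 574 and 639 to 1588 CPM. Blood markers rose in 3 of 4 (Hba-x, Hba-a1 and Hbb-y). In run 1 the member medians of globin transcripts per 10000 UMIs were 12.5 to 15.4 at E8.0 and 14.2 to 18.8 at E9.5. They were 56.1 to 58.6 in Bar9, Bar8 and Bar10 of run 3, which held no E8.0 sample. The summed level of the 10 blood markers was 1266 to 1528 CPM at E8.0 and 1367 to 6697 at E9.5, and its part in the stage differences was not tested.

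At E8.5, 596 genes differed from E8.0 (6.89%), 298 higher and 298 lower (3.45% each). This count was 23 without control Bar3, 171 without mutant Bar1, 371 without control Bar29 and 389 without mutant Bar25. Shox2 was 349 CPM in control Bar3 and 125 in mutant Bar1, and the change from E8.0 was 3.94 ± 0.42 on the log2 scale (adjusted p = 4.56e-06, edgeR's quasi-likelihood test). Tbx18 was 96.1 and 36.4 CPM in these 2 samples (3.90 ± 0.66), and Ifitm1 was 13.9 and 13.5 CPM (-3.48 ± 0.37). The E8.5 libraries were all in run 2 and the E8.0 libraries all in run 1. With run as a term, estimated through the E9.5 samples of each run, 6 genes were called. In that fit control Bar4 was the only E9.5 sample of run 2. Between E8.5 and E9.5, 7 genes were called (0.081%), 5 higher (0.0578%) and 2 lower (0.0231%), with 1158 at an unadjusted p under 0.05, and of all gene lists only the sodium-calcium exchanger gene Slc8a1 was among the 7, higher by 0.99. DESeq2 called 107, and leaving out 1 sample gave 0 (without Bar1) to 84 (without Bar4).

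The targeted gene Wls (GRCm38 3:159839672-159938664, plus strand) checks the genotype labels. At E8.0 members had 40.8, 48.5 and 41.5 CPM in controls and 1.43, 1.92 and 7.93 in mutants, and at E8.5 82.1 and 2.70. At E9.5 controls Bar22, Bar23, Bar4 and Bar9 had 60.2, 61.4, 75.7 and 61.0 CPM and mutants Bar19, Bar20, Bar21, Bar8 and Bar10 had 0, 6.50, 7.80, 7.03 and 0. No mutant overlapped any control, and over all stages Wls was lower by 3.78 ± 0.28 on the log2 scale (adjusted p = 1.31e-08, edgeR's quasi-likelihood test). A Wls UMI was present in 50.6%, 65.2% and 52.2% of control members at the 3 stages and in 8.74%, 4.55% and 6.49% of mutant members (20.5%, 32.8% and 22.8% against 0.971%, 0% and 3.95% after thinning). Which exons the floxed allele removes was not given in the sources used here, so the few mutant UMIs may or may not come from intact genes.

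Over all stages, 56 of 9535 genes differed by genotype (0.587%), 53 higher in mutant members (0.556%) and 3 lower (0.0315%). The higher genes included 15 of 26 low-oxygen response genes and 6 of 27 glycolysis genes, lists that share genes. The low-oxygen count was 6 without Bar22 or Bar23 and 9 without Bar9, and the glycolysis count ran from 1 (without Bar22 or Bar23) to 11 (without Bar24) when 1 sample was left out. With the male share as a covariate both were 0, whereas in female samples alone they were 14 of 25 and 11 of 25. Wls, Xaf1 and the ribonucleotide reductase gene Rrm2 were lower. The total of 56 rested on E9.5: without the E9.5 samples 1 gene was called, and with the male share as a covariate 2. It was 14 without control Bar22, 16 without Bar23, 27 without Bar9, 34 without Bar1, 35 without Bar3, 36 without Bar21, 37 without Bar19 and 100 without Bar29. The stages are therefore described separately.

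At E8.0, 4 of 7557 genes were called (0.0529%), 1 higher (0.0132%) and 3 lower (0.0397%), with 268 at an unadjusted p under 0.05. Wls was lower by 3.53 ± 0.43 on the log2 scale (adjusted p = 0.00566, edgeR's quasi-likelihood test; means 3.76 CPM ± 3.62 and 43.6 ± 4.26, SD, n = 3 each), a call lost when Bar29 or Bar27 was left out. With the male share as a covariate no gene was called, and Wls was lower by 3.37. That fit could hardly tell sex from genotype. The male share was 0.98 to 0.99 in mutants, 0.023 and 0.022 in controls Bar24 and Bar26, and 0.53 in Bar29. The Wls call was also lost with 20 cells drawn per sample, with at least 20 cells, at a level of 100 and without cells holding endothelial UMIs (adjusted p = 0.284, 0.133, 0.247 and 0.57), with estimates between -3.11 and -4.42. Xist, the X-inactivation RNA, was lower by 4.24 ± 0.47 (adjusted p = 0.00295), beside 3 male mutants. The remaining 2 were ribosomal Rpl34 and its pseudogene, whose near-identical reads are uncertain. No gene of any list other than Wls was called, and the 20 tested low-oxygen genes had a median of 0.31.

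At E9.5, 165 of 6647 genes were called (2.48%), 146 higher in mutant members (2.2%) and 19 lower (0.286%). The 165 became 65 without control Bar23, 73 without control Bar22 and 288 without mutant Bar20. It was 65 with the male share as a covariate and 77 in female samples alone, of which 63 were among the 165. The leading group was the low-oxygen response, genes known to be switched on through hypoxia-inducible factors: 23 of 26 tested rose, all 26 had positive estimates, and the median log2 difference was 1.95 against 0.01 over all genes. Ndufa4l2 (10:127514967-127517154), a mitochondrial protein gene induced by low oxygen, was 7.85, 15.0, 26.5 and 5.23 CPM in controls Bar22, Bar23, Bar4 and Bar9. It was 218, 84.6, 160, 77.3 and 187 CPM in mutants Bar19, Bar20, Bar21, Bar8 and Bar10. Every mutant thus lay above every control, and the difference was 3.96 ± 0.39 on the log2 scale (adjusted p = 7.22e-06, edgeR's quasi-likelihood test). UMIs of Ndufa4l2 were found in 15 of 17, 10 of 17, 11 of 14, 5 of 13 and 12 of 16 mutant members and in 4 of 38, 9 of 37, 6 of 22 and 2 of 54 control members. These shares were not thinned to equal depth, and background from free RNA was not tested.

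Ddit4 (10:59949669-59951834), a stress-induced inhibitor of mTORC1, was 18.3, 17.5, 11.4 and 10.5 CPM in the E9.5 controls and 322, 65.0, 371, 70.3 and 108 in the mutants, in the same sample order. All mutants were higher, and the male Bar19 and Bar21 were the highest. The log2 difference was 3.73 ± 0.46 (adjusted p = 8.7e-05, edgeR's quasi-likelihood test) and it was 2.34 in female samples alone (adjusted p = 0.00293). Ier3 (17:35821684-35822923), an early response gene, was 15.7, 15.0, 37.9 and 20.9 CPM in controls and 218, 124, 148, 126 and 158 in mutants, without overlap and 3.27 ± 0.28 higher (adjusted p = 2.01e-06). Bnip3 (7:138890836-138909519), a mitophagy receptor gene, was 45.8, 75.1, 114 and 69.7 CPM in controls and 252, 198, 219, 211 and 339 in mutants, a rise of 1.98 ± 0.22 (adjusted p = 2.34e-05).

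The oxygen sensors themselves were among the genes that rose. Egln3, a prolyl hydroxylase that marks hypoxia-inducible factors for degradation, was 3.93, 3.76, 3.79 and 8.72 CPM in E9.5 controls and 83.0, 22.8, 89.7, 21.1 and 79.2 in mutants. Its log2 difference was 3.53 ± 0.55 and that of the related Egln1 was 1.70 ± 0.22 (adjusted p = 0.000669 and 0.000149, edgeR's quasi-likelihood test). The angiogenic ligand gene Vegfa was 18.3, 28.8, 30.3 and 43.6 CPM in controls and 163, 65.0, 164, 91.4 and 158 in mutants (2.19 ± 0.32, adjusted p = 0.00036). P4ha2, a collagen prolyl hydroxylase subunit, was 49.7, 52.6, 18.9 and 47.1 CPM in controls and 387, 150, 421, 155 and 187 in mutants (2.49 ± 0.30, adjusted p = 6.39e-05). The genotypes did not overlap for these 4 genes. They were named because they were called in the same samples, so this only describes them, and the share without overlap over all genes was not counted. Ndrg1 and Bhlhe40 also passed (3.64 ± 0.53 and 3.62 ± 0.57) but overlapped, and their calls were lost in female samples alone (adjusted p = 0.216 and 0.213). Their estimates there were 2.41 and 3.11.

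The count of low-oxygen genes called depended on which samples entered. It was 18 with the male share as a covariate and 16 of 25 in the female samples. It was 22 without run 3, 21 in run 1 alone, 18 without members holding 3 or more endothelial UMIs and 16 by DESeq2. Leaving out 1 sample at a time gave 18 to 24. In run 3 alone Bar9 was the only tested control, so its count is not given. The log2 estimates there were 4.58 for Ndufa4l2, 3.07 for Ddit4 and 1.54 for Vegfa. The direction of the named genes did not reverse in any of these settings. In female samples alone the log2 differences were 3.44 for Ndufa4l2, 2.95 for Ier3, 1.89 for Bnip3, 1.42 for Egln1, 1.54 for Vegfa and 1.73 for P4ha2, all called (highest adjusted p = 0.0196, edgeR's quasi-likelihood test). Egln3 was 2.54 higher there and not called (adjusted p = 0.208).

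Hypoxia-inducible factors bind DNA at a core of ACGTG, and 4 promoters of genes that rose are shown because this core can be read in them. The search covered both strands of 300-base windows (250 before to 50 after the start) from RefSeq on GRCm38.p6, where 19.6% of all 32851 promoters held ACGTG. In the low-oxygen list it was found in 19 of 31 promoters of 23 genes (61.3%). With GCGTG, the other common form of the core, searched as well, the shares were 43.8% of all promoters and 83.9% of the list's. Below, the 250 bases before each start are given 5′ to 3′ on the gene's strand, with capitals marking ACGTG or its reverse complement. In Bnip3 (chr7:138909507-138909756, minus strand) the 2 matches overlap in CACGTG. The others are Ddit4 (chr10:59951771-59952020, minus), Egln3 (chr12:54203875-54204124, minus) and P4ha2 (chr11:54100674-54100923, plus). Genes of this list are in part known through such cores, and a match of letters is not a measured binding site.
Bnip3: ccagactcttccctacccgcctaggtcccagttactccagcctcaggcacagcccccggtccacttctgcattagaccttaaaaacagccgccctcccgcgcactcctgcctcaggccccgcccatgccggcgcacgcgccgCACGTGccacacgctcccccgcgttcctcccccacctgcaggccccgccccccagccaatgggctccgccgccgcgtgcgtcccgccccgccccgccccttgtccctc
Ddit4: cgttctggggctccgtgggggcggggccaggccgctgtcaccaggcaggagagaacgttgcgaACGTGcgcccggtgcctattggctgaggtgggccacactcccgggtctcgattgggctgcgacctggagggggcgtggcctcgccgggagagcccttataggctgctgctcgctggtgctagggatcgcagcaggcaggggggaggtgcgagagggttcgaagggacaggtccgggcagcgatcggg
Egln3: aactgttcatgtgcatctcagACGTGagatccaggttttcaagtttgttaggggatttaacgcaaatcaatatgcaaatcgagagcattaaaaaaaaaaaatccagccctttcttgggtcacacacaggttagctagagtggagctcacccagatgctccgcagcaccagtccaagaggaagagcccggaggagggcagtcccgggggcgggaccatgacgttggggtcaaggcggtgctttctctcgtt
P4ha2: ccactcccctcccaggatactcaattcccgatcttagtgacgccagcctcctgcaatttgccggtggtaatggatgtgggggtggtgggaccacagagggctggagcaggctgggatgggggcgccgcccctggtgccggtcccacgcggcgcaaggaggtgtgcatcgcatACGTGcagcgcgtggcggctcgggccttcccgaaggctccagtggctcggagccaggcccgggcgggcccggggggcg

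Glycolysis genes rose with the low-oxygen genes, but the lists share genes, so their counts are not separate. At E9.5, 16 of 25 tested rose and none fell, with a median log2 difference of 0.81. Pgk1 (X:106187100-106203699), phosphoglycerate kinase, was 1177, 1273, 1250 and 999 CPM in controls and 3576, 2426, 2645, 2129 and 2788 in mutants. The hexokinase gene Hk2 was 144, 188, 231 and 214 CPM in controls and 920, 462, 644, 429 and 756 in mutants. Neither gene overlapped, and the log2 differences were 1.34 ± 0.15 and 1.91 ± 0.24 (adjusted p = 2.9e-05 and 8.7e-05, edgeR's quasi-likelihood test). Lactate dehydrogenase A gene Ldha, from 2371 to 2767 CPM in controls and 3942 to 4651 in mutants, rose by 0.80 ± 0.11, and the triose isomerase gene Tpi1 and pyruvate kinase gene Pkm rose by 0.97 and 0.74. Pdk1, the kinase that holds pyruvate back from mitochondria, rose by 1.53 and the glucose transporter genes Slc2a3 and Slc2a1 by 2.23 and 1.33. The number called was 10 with the male share as a covariate, 12 in female samples alone and 10 without control Bar22. In run 3 alone, where Bar9 was the only tested control, the log2 estimates were 1.33 for Pgk1, 1.02 for Tpi1 and 0.85 for Ldha. In female samples Pgk1 and Hk2 were 1.20 and 1.53 higher (adjusted p = 2.27e-05 and 0.000255).

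Of 9 mitochondrially encoded respiratory genes in the list, all tested, 4 were lower in mutant members. mt-Nd1 (M:2751-3707), a complex I subunit, was 4992, 4401, 4154 and 2871 CPM in E9.5 controls and 1674, 2078, 2587, 1813 and 1858 in mutants, without overlap, a difference of -0.91 ± 0.13 on the log2 scale (adjusted p = 0.000271, edgeR's quasi-likelihood test). mt-Cytb, of complex III, was 7797, 6046, 5942 and 4144 CPM in controls and 3036, 3740, 3574, 2937 and 2103 in mutants (-0.83 ± 0.12, adjusted p = 0.000347). mt-Nd4 and mt-Co2 fell by 0.62 and 1.00, while mt-Co1 and mt-Nd5 had estimates of 0.41 and 0.17 and were not called. The mt-Co2 call was lost without run 3 (adjusted p = 0.106), with the male share as a covariate (0.0968) and in female samples alone (0.0980). Its estimates there were -0.93, -1.30 and -1.29. The mt-Nd4 call was lost with the male share, where its estimate was -0.60 (adjusted p = 0.0604). In all, 4 of 26 oxidative phosphorylation and fatty acid genes fell, these 4, and the list median was -0.12. All mitochondrial transcripts made up 1.88% to 2.71% of member UMIs in the 4 controls and 1.39% to 1.82% in the mutants (medians over cells), and the lowest control was Bar9 of run 3. Cells under the level had 2.53%, 2.46%, 1.31% and 1.69% in these controls and 1.75%, 2.03%, 1.76%, 1.37% and 1.27% in the mutants. Within run 1 these shares were thus also lower in mutants, so the lower share there was not particular to members. In run 3, control Bar7, which had too few members to be tested, had 1.31% in cells under the level. That lay between mutants Bar10 and Bar8, so the genotypes overlapped in that run. The mt-Nd1 difference was -0.85 in female samples alone (adjusted p = 0.000356), where that of mt-Cytb was -0.74 (adjusted p = 0.00241). In run 3 alone, where Bar9 was the only tested control, the estimates were -0.61 for mt-Nd1, -0.69 for mt-Cytb and -0.49 for mt-Nd4.

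**Figure D4:**
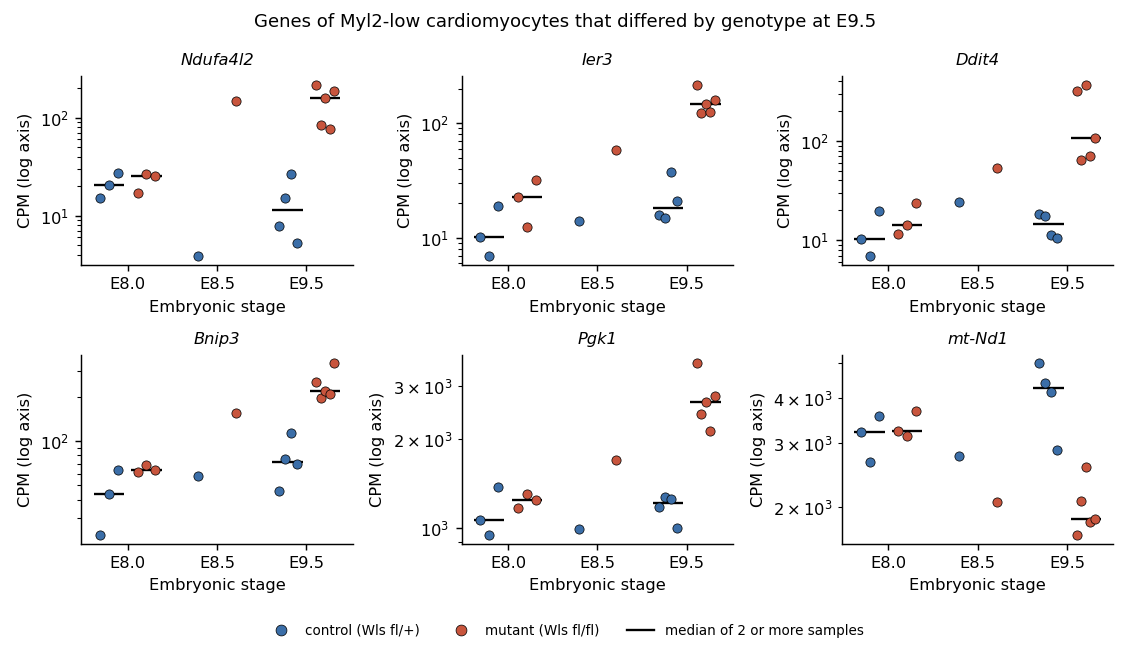
CPM of Ndufa4l2, Ier3, Ddit4, Bnip3, Pgk1 and mt-Nd1 in Myl2-low cardiomyocytes on a log axis, 1 point per sample by stage and genotype. At E9.5 the first 5 genes are higher in every mutant sample than in every control sample and mt-Nd1 is lower, whereas at E8.0 the genotypes overlap for all 6 genes.

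Krt19, Tagln and Acta1 rose at E9.5 as well. The last 2 were the single calls among 10 smooth muscle and 29 sarcomere genes, lists in which 1 call is near the 2.48% called over all genes. Krt19 (11:100140810-100148665), a keratin of simple epithelia and of the epicardial lineage, was 36.7, 47.6, 133 and 40.1 CPM in controls and 733, 247, 585, 330 and 324 in mutants, without overlap, a difference of 3.53 ± 0.31 on the log2 scale (adjusted p = 2.01e-06, edgeR's quasi-likelihood test). A Krt19 UMI was present in 15 of 17, 14 of 17, 13 of 14, 12 of 13 and 11 of 16 mutant members and in 12 of 38, 13 of 37, 7 of 22 and 17 of 54 control members. In female samples alone Krt19 was 2.80 higher (adjusted p = 7.3e-07). Tagln, the smooth muscle protein transgelin, was 284, 292, 307 and 329 CPM in controls and 1183, 452, 656, 794 and 497 in mutants, a rise of 1.34 ± 0.25 (adjusted p = 0.00377). With the male share as a covariate it was 0.84 higher and not called (adjusted p = 0.0747), and in female samples alone 0.87 higher and called (adjusted p = 0.0136). The skeletal actin gene Acta1 rose by 1.67 ± 0.32. Its groups overlapped, and the call was lost without Bar22 or Bar23.

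In the proepicardial list 3 of 9 genes rose (Krt19, Wt1 and Sfrp5), with a median of 1.28. Wt1, an epicardial transcription factor, was 19.6, 11.3, 18.9 and 5.23 CPM in controls and 65.7, 9.76, 85.8, 35.1 and 36.0 in mutants (2.00 ± 0.50, adjusted p = 0.0386, edgeR's quasi-likelihood test), with overlap through Bar20. The Wt1 call was lost when any of 7 samples was left out and in female samples alone (0.95, adjusted p = 0.767). Sfrp5 overlapped too and was lost without Bar23. With the male share as a covariate 1 gene of this list was called. The summed level of the 10 proepicardial markers, all of them detected, was 220 to 584 CPM in E9.5 control members and 639 to 1588 in mutant ones. Krt19 alone was 36.7 to 133 of these CPM in controls and 247 to 733 in mutants. The same sum was 166 to 480 in control and 318 to 926 in mutant Myl2-positive cells, and 110 to 504 and 415 to 716 in cells under the level. Whether cells of that type shared droplets or membership with the myocytes was not tested.

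Summed levels of other marker lists overlapped between the genotypes. Summed endothelial markers were 117 to 307 CPM in E9.5 control members and 36.0 to 189 in mutant ones, where Cdh5, Esam and Cldn5 were at 0. Summed second heart field progenitor markers were 523 to 712 and 372 to 675 CPM. That list includes Isl1, Fgf8 and Nr2f2, counted above as outflow or inflow genes of the members, so its sum does not measure other cells alone. Blood markers were 1367 to 5624 and 1611 to 6697 CPM.

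The natriuretic peptide genes Nppb and Nppa, products of chamber myocardium, were called higher but came from few cells. Nppb (4:147985788-147987205) was 2.62, 13.8, 15.1 and 31.4 CPM in E9.5 controls and 778, 22.8, 62.4, 394 and 14.4 in mutants, so the groups overlapped and 2 mutants carried most of it. In Bar19, 3 of 17 cells held all 225 Nppb UMIs, 119 of them in 1 cell, and in Bar8, 4 of 13 cells held 56. The difference was 4.21 ± 0.94 on the log2 scale (adjusted p = 0.0175, edgeR's quasi-likelihood test). The call was lost without Bar22, Bar23, Bar19 or Bar8 and in female samples alone (2.38, adjusted p = 0.153). At E8.5 Nppb was 2.32 CPM in control Bar3 (95% Poisson interval 0.479 to 6.79) and 185 in mutant Bar1 (155 to 219), and 4 of 44 cells held the 137 mutant UMIs. Over the dataset 7 members held 10 or more Nppb UMIs, all of them mutant, with Myl2 at 0 UMIs in 5 and at 1 in 2. Their median contractile level, a value the rule used, was 482 per 10000. It was 406 in the 46 members with 1 to 9 Nppb UMIs, 25 of them control, and 148 in the 480 members without Nppb. Nppa was 2.56 ± 0.66 higher (adjusted p = 0.0432), with overlap, and its call was lost in 6 of the 9 fits that left out 1 sample.

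Genes lower in E9.5 mutant members were fewer. Rrm2, a subunit of ribonucleotide reductase needed for DNA synthesis, was 207, 193, 144 and 101 CPM in controls and 72.6, 97.6, 66.3, 28.1 and 36.0 in mutants, without overlap (-1.31 ± 0.21, adjusted p = 0.000695, edgeR's quasi-likelihood test), and the difference was -1.15 in female samples alone (adjusted p = 0.0235). Ccne1, the cyclin of the entry into S phase, fell by 1.40 but was not called in female samples alone (-0.93, adjusted p = 0.359). The other 26 of 28 S phase and mitosis genes tested were not called. The fatty acid synthase gene Fasn fell by 1.06, the small heat shock protein gene Hspb3 by 2.41 and Wfdc2 by 2.58. In female samples alone these 3 were not called (adjusted p = 0.261, 0.0560 and 0.381), nor were they with the male share as a covariate (0.319, 0.355 and 0.418).

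Few genes of the identity lists were called at E9.5, where 2.48% of all genes were, so 0 or 1 call in lists of this size is near the background. In the ventricular chamber list 2 of 13 passed, both higher (Nppa and Nppb), with a median of 0.48. None of 18 cardiac transcription factors, 17 conduction and calcium genes and 7 atrioventricular canal genes passed. Single genes passed in the atrial and inflow list (Nppa, 1 of 15, median -0.17) and the outflow list (Sfrp5, 1 of 15, median 0.08). Shox2 and Nr2f2, which led the venous-pole programme, were 49.2 to 205 and 169 to 349 CPM in mutants and 98.5 to 206 and 337 to 429 in controls, and neither was called. On simulated data of this design, 61% of genes changed by 1 log2 unit and 86% of those changed by 2 were recovered, so smaller differences may have been missed.

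Readouts of Wnt signalling were few in these cells. Of 20 canonical Wnt targets listed, 5 could be tested at E9.5 and none was called (median -0.25), and none of 9 was called over all stages. The targets Axin2 and Lef1 were low in both genotypes, at 3.79 to 15.0 and 11.4 to 13.9 CPM in E9.5 controls and 0 to 11.7 and 0 to 24.2 in mutants. Of the Wnt ligand and secretion list only Wls was called among 5 tested. None of 13 Wnt receptor and polarity genes and none of 13 BMP, FGF and Notch response genes passed.

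A test of the difference between stages asked whether the genotype effect was larger at E9.5 than at E8.0. It differed for 19 of 8398 genes (0.226%), being higher at E9.5 for 17 (0.202%) and lower for 2 (0.0238%). Ndufa4l2 had the largest difference, 3.94 ± 0.57 on the log2 scale (adjusted p = 0.00549, edgeR's quasi-likelihood test): its E8.0 values were 15.3, 20.8 and 27.2 CPM in controls and 17.2, 26.9 and 25.1 in mutants, which overlapped. Mgarp, a mitochondrial protein gene induced by low oxygen, differed by 2.77 ± 0.42 (adjusted p = 0.00549), Krt19 by 2.91, Ier3 by 2.68, Hk2 by 1.85 and Pgk1 by 1.21, while mt-Nd1 and mt-Cytb differed by -0.999 and -0.895. Low-oxygen genes accounted for 4 of 26 tested, with a median difference of 1.54. The gap junction gene Gja1 differed by 1.90 ± 0.37: at E8.0 mutants had 21.5 to 29.1 CPM and controls 54.3 to 60.03, and at E9.5 mutants had 21.1 to 34.6 and controls 8.72 to 22.5. The count rested on single samples: 0 genes without Bar22, 1 without Bar23 or Bar29 and 58 without Bar20, and sex and run differ between the 2 stages.

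At E8.5, with 1 control and 1 mutant sample, both female, values of the same genes can be set side by side without a test. Ndufa4l2 was 3.87 CPM in control Bar3 and 147 in mutant Bar1. Krt19 was 63.5 and 235 CPM, Bnip3 58.1 and 157, and Pgk1 995 and 1691. The order of each pair was that of E9.5. mt-Nd1 was 2766 and 2062 CPM.

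The genotype effect in members was finally compared with that in other cells of the same samples. These tests took 1 genotype effect over E8.0, E8.5 and E9.5 together. Their estimates are therefore not E9.5 estimates, even where E9.5 values stand beside them. The E9.5 ranges take every sample with at least 10 cells of the population named. Those of Myl2-positive cells and of cells under the level thus include control Bar7, and those under the level also mutant Bar5. Both samples were left out of the tests. Against Myl2-positive cardiomyocytes, 6 of 9674 genes had a higher effect in members (0.062%) and none a lower one, with 531 at an unadjusted p under 0.05 and none by DESeq2. Nppb differed most, by 4.95 ± 0.66 on the log2 scale (adjusted p = 0.000164, edgeR's quasi-likelihood test). In Myl2-positive cells it was 81.2 to 471 CPM in E9.5 controls and 36.0 to 192 in mutants, so the ranges overlapped there, with the highest values in controls, whereas the highest values among members were in mutants. Anxa2, a membrane-binding annexin, was 63.9 to 81.9 CPM in control and 267 to 567 in mutant members, against 128 to 205 and 234 to 385 in Myl2-positive cells (difference 1.03 ± 0.18, adjusted p = 0.0161). Ccnd2, a cyclin of the first growth phase, was 203 to 363 and 115 to 247 CPM in members but 502 to 1295 and 180 to 514 in Myl2-positive cells (0.89 ± 0.18, adjusted p = 0.0495). Tgfb2 and Creb5, a growth factor and a transcription factor gene, differed by 1.08 and 3.10. Except for Nppb, each of these calls was lost in at least 4 of the fits that left out 1 sample.

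Among low-oxygen genes none of 26 was called in this test over all stages, and their median difference in effect was 0.27. The E8.0 samples, in which no low-oxygen gene was called by genotype, enter that value. Ndufa4l2 at E9.5 was 9.06 to 13.8 CPM in control and 47.7 to 222 in mutant Myl2-positive cells, and 3.93 to 11.0 and 41.1 to 109 in cells under the level, so all 3 populations separated by genotype. Against all cells under the level, 0 of 12521 genes were called (0%) by edgeR's quasi-likelihood test, 609 at an unadjusted p under 0.05 and 0 by DESeq2. The low-oxygen median difference there was 0.11 over 29 genes. These values do not show that the effects are equal.

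**Figure D5:**
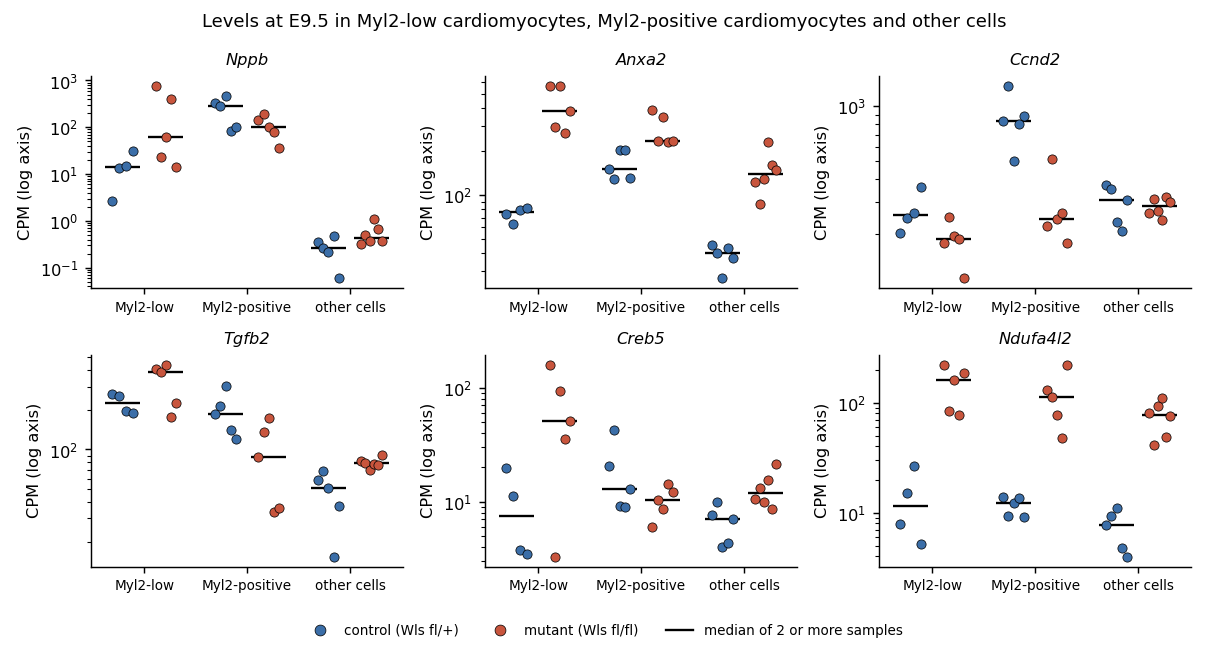
CPM of Nppb, Anxa2, Ccnd2, Tgfb2, Creb5 and Ndufa4l2 at E9.5 on a log axis, 1 point per sample, for Myl2-low cardiomyocytes, Myl2-positive cardiomyocytes and cells under the 4-gene level, by genotype. Among Myl2-low cells Nppb reaches 778 CPM in mutants and at most 31.4 in controls, while Ndufa4l2 is higher in every mutant than in every control in all 3 populations.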

How the data were processed

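Mesp1-lineage cells of 22 MULTI-seq barcoded samples, pooled in 3 sequencing runs, were analysed. The deposited values are UMI counts per gene and cell, which the authors made with kallisto and bustools (0.46.1) on GRCm38, with Cell Ranger also named, per the submitters' processing notes. The authors' cell table, as deposited, gave run, stage, genotype and barcode. Member cells and gene lists were chosen with earlier results of these data known. No cell was removed beyond the deposited selection, and no doublet caller was run.

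Member UMIs were summed per barcode and tested with edgeR 4.0.16 in R 4.3.3: TMM scaling, filterByExpr, quasi-likelihood test, a block for each stage and run, and Benjamini-Hochberg adjustment over all genes tested at 0.05. Stage comparisons had genotype as a term and no block, and comparisons between cell populations had the barcode as a block. DESeq2 1.42.0 was an alternative. SE is the log2 difference over the root of F. A minimum of 20 member cells per sample was intended, but no E9.5 mutant reached it, so a minimum of 10, set down as an alternative, was used throughout. Shares needed 50 cells per sample and were compared by permutation within stage. Named genes were the 10 largest rises and falls per comparison (5 for differences between effects) among called genes at 20 CPM or more, plus called list members and Wls. For the male share, cells with only Y-linked UMIs were divided by those with only Y-linked or only Xist UMIs. Intervals cover counting error only. Scripts were tested on simulated counts. Gene positions are from GENCODE M21, promoters from RefSeq (GRCm38.p6). Alternatives added after seeing the data were those without endothelial UMIs, by cell depth, without run 3, by sex, by genotype within the stage comparisons, permuting within run, and thinned shares with at least 20 cells.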

Additional observations from a re-analysis of the deposited data

Results flagged for a closer look

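Groups of 4 to 6 E9.5 samples, holding gene levels or member shares, numbered 119. Of them, 9 held a sample whose gap to the nearest other exceeded Dixon's 95% limit, against about 1 in 20 expected by chance. Control Bar4 was the highest of its group for Wls (75.7 CPM, others 60.2 to 61.4), Krt19 (133, others 36.7 to 47.6), Hilpda, a lipid droplet gene (53.0, others 31.3 to 34.9), and Ankrd37 (79.5, others 36.7 to 40.1), and the lowest for P4ha2 (18.9, others 47.1 to 52.6). Control Bar9 was highest for Egln3 (8.72 CPM, others 3.76 to 3.93) and control Bar22 lowest for Egln1 (110, others 145 to 149). Mutant Bar19 was highest for Bnip3l, a mitophagy receptor gene (640 CPM, others 346 to 426), and for Pfkp, a phosphofructokinase gene (418, others 151 to 222).

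For 13 named genes the mutant minus control difference was not the same at E9.5 as at E8.0, by edgeR's quasi-likelihood test and on the log2 scale. The difference was 3.94 for Ndufa4l2, 2.91 for Krt19, 2.77 for Mgarp, 2.71 for the glycogen-targeting subunit gene Ppp1r3c, 2.68 for Ier3, 2.22 for Ankrd37, 1.90 for Gja1, 1.85 for Hk2, 1.82 for P4ha1, 1.21 for Pgk1 and 0.80 for Pkm. It was -0.999 for mt-Nd1 and -0.895 for mt-Cytb.

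Over all stages together, the genotype effect also differed between Myl2-low and Myl2-positive cardiomyocytes for 5 named genes. The difference was 4.95 for Nppb, 3.10 for Creb5, 1.08 for Tgfb2, 1.03 for Anxa2 and 0.89 for Ccnd2. Mutant values of Creb5 ran from 3.25 to 159 CPM in E9.5 members and from 6.02 to 14.3 in Myl2-positive cells.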

How the results depend on the processing

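Of 59 genes named at E9.5, none reversed and 12 kept direction and call in all 23 settings; 32 kept both under every left-out sample. Genes called in the E9.5 genotype comparison numbered 165, and 293 without the filter on low counts, 254 at a level of 25 per 10000 and 86 with Myl2 at 0 UMIs. They numbered 65 with the male share as a covariate, 77 in female samples, and 65 to 288 when 1 sample was left out. Run 3 alone, 1 of the 23 settings, had a single tested control, Bar9, so its count is not given. Over all stages (56) the counts were 92 by DESeq2, 193 without the filter, 32 at a level of 100, 29 with Myl2 at 0 and 3 with at least 20 cells. They were 1 with 20 cells drawn per sample, 17 without cells holding endothelial UMIs and 20 in cells of at least 10000 UMIs. Further counts were 20 without run 3, 2 with the male share, 8 in run 1 and 1 without E9.5, and 14 to 100 by leaving out samples. At E8.0 (4) they were 36 without the filter, 2 with 20 cells drawn, 2 without endothelial UMIs and 0 with the male share, which nearly followed genotype there, and 1 to 6. For the difference between stages in genotype effect (19) they were 40 by DESeq2, 110 without the filter, 34 at a level of 25, 12 with Myl2 at 0, 4 in deep cells, 6 without run 3 and 64 with the male share, and 0 to 58.

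For E9.5 against E8.0 (1271) the counts were 778 with Myl2 at 0, 193 with at least 20 cells, 43 with 20 cells drawn, 357 without endothelial UMIs, 344 in controls, 559 in mutants and 824 in run 1, and 903 to 1250. For E8.5 against E8.0 (596) they were 348 at a level of 100, 347 with Myl2 at 0, 231 with 20 cells drawn, 150 without endothelial UMIs, 6 with run as a term, 124 in controls and 47 in mutants, and 23 to 662. For E9.5 against E8.5 (7) they were 14 with RLE size factors, 107 by DESeq2, 187 without the filter, 2 and 3 at levels of 100 and 25, 20 with Myl2 at 0, 29 with Myl2 under 1.5 per 10000 UMIs, 1 with 20 cells drawn, 0 without endothelial UMIs, 43 in deep cells, 77 without run 3, 0 with run as a term, 0 in controls and 1 in mutants, and 0 to 84. The Myl2-low minus Myl2-positive effect (6) had 0 genes by DESeq2 and 1 to 24 by leaving out samples, and that against cells under the level (0) had 0 to 1.

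Signs turned for Gja1 (0.27, mutants only), Plk1, Aurka and Ccnd2 (0.13, 0.020 and 0.00057, 20 cells drawn) in E9.5 against E8.0, and for Uty, Ddx3y and Slit2 (0.067, 0.14 and 4.17, run as a term), Nppb (-0.93, Myl2 at 0) and Actn2 (-0.11, 20 cells drawn) in E8.5 against E8.0. The log2 odds of the member share turned to -0.395 over all stages and -0.599 at E8.0 as a share of cardiomyocytes, and at E9.5 to 0.176 at a level of 25, and in thinned cells to 0.281 without Bar5 (under 50 such cells) and 0.00954 with it. Leaving out samples gave 0.0632 to 0.460, 0.0702 to 0.968 and -0.473 to 0.191. The cause was not tested. At E9.5 the fits with at least 20 or 50 cells, or 20 drawn, could not be fitted because no mutant remained, and removing cells with 3 or more blood or endothelial UMIs left 1 cell, so it was not run. No paired analysis was possible because barcode numbers are not shared between genotypes or stages; only the comparisons between cell populations of 1 barcode were blocked. Depth limits genes of a few UMIs per sample.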
